A study of Mus musculus with 9 samples.

Results

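The 7 Schlafen genes Slfn1, Slfn2, Slfn3, Slfn4, Slfn5, Slfn8 and Slfn9 were followed in CD11b+ cells sorted from livers of mice injured with acetaminophen (APAP). They were taken by their symbols, matched through the gene IDs of the expression tables, and are 7 of 45777 genes in all. All 7 reached 1 TPM (transcripts per 1000000) in at least 3 samples, as did 13820 genes in all. The family was selected on the difference of Slfn4 between MSC-EV and PBS mice, which was known when it was proposed, so that difference is given as a description with no test. The same holds for Slfn4 in MSC-EV against HEK-EV mice, which rests on the same MSC-EV samples. Slfn4 also enters counts over all 7 members where alternative fits are compared, and nothing is read for it from these counts. The p-values of the other genes describe these samples and are no independent evidence for a family pattern.

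Bulk RNA sequencing covered 9 samples in 3 groups of 3, all from mice given APAP by intraperitoneal injection, a model of acute liver failure. CD11b is an integrin chain of monocytes, macrophages and neutrophils. Intravenous treatment followed 8 hours after APAP and livers were taken at 48 hours. The control group (labelled APAP) received PBS, the HEK-EV group (labelled APAP+HEKSIRP-EV) received SIRP-EVs that HEK cells (an epithelial-like line of human embryonic kidney origin) had released, and the MSC-EV group (labelled APAP+SIRP-EV) received SIRP-EVs derived from MSCs, the usual abbreviation of mesenchymal stem or stromal cells. EVs are extracellular vesicles, and SIRP is not spelled out in the labels. No group without APAP and no group with vesicles lacking SIRP was analysed here, so levels are relative to APAP alone. Strain, sex, age and APAP dose are not given in the sources used here. The labels do not say whether the samples of a group came from separate animals, and the p-values measure only the spread between these samples.

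Schlafen proteins are a family of immune regulators named for the quiescence they impose on lymphocytes, and most members are induced by type I interferon. They share an N-terminal core that in several members cuts or protects transfer RNA. The short forms, Slfn1 and Slfn2, consist of little more than this core, the intermediate forms, Slfn3 and Slfn4, add a linker region, and the long forms, Slfn5, Slfn8 and Slfn9, add a helicase-like C-terminal domain. In myeloid cells Slfn4 is known as a gene of inflammatory monocytes and myeloid-derived suppressor cells, and Slfn2 as a factor that monocytes and T cells need to stay quiescent and survive.

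The 7 genes lie together within 264 kb of chromosome 11 (mm10, chr11:82951349-83215154), 5 on the plus and 2 on the minus strand. In order along the chromosome they are Slfn5 (gene ID 327978, chr11:82951349-82964850, plus), Slfn9 (237886, chr11:82974316-82991830, minus), Slfn8 (276950, chr11:83002125-83020810, minus), Slfn2 (20556, chr11:83065112-83070678, plus), Slfn1 (20555, chr11:83116820-83122670, plus), Slfn4 (20558, chr11:83175172-83190216, plus) and Slfn3 (20557, chr11:83191330-83215154, plus). Their coding sequences have 337 codons in Slfn1, 378 in Slfn2, 640 in Slfn3, 602 in Slfn4, 884 in Slfn5 and 910 in both Slfn8 and Slfn9 (GENCODE annotation of GRCm38, stop codon not counted). Aligned over their length, the coding sequences of Slfn8 and Slfn9 were 92.7% identical, those of Slfn3 and Slfn4 86.5%, and those of Slfn1 and Slfn2 67.0%. Such copies can share reads. Of all stretches of 75 bases in the coding sequence, 11.9% in Slfn9, 8.5% in Slfn8, 4.2% in Slfn4, 2.5% in Slfn2 and 2.4% in Slfn3 occurred without mismatch in another Schlafen transcript, and none did in Slfn1 and Slfn5. How reads that match several copies were assigned is not given in the sources used here, so the values of Slfn8, Slfn9, Slfn4, Slfn2 and Slfn3 are uncertain. The shares above do not bound this uncertainty, since copies differ in level (Slfn3 at 22.4 and Slfn4 at 619 TPM in PBS samples).

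Start-site regions are shown because members differed in how far they moved. All 7 members had a RefSeq promoter window (250 bases before to 50 after the start, GRCm38.p6), and both strands were searched for 2 interferon response motifs. The core of the interferon-stimulated response element (ISRE), GAAA, any 2 bases, then GAAA, was present in 3 of 7 members, against 3.99% of all 27025 genes with a window and 18 of 29 listed interferon-stimulated genes in that table. The gamma-activated site TTCNNNGAA was in 0 of 7 members and 9.55% of genes. The ISRE core was found in Slfn5, Slfn8 and Slfn9, the long forms, and is given in capitals in these stretches of 30 bases, read 5′ to 3′ on the gene's strand. They are chr11:82951937-82951966 (plus), chr11:83020839-83020868 (minus) and chr11:82991856-82991885 (minus), and in the last 2 the core reads on the opposite strand.
Slfn5: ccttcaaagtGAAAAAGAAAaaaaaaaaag
Slfn8: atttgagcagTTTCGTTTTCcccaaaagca
Slfn9: atccgagcagTTTCGTTTTCccaaaaacaa
The core began 155 bases before the start of the window table in Slfn5, 45 in Slfn9, and 48 or 136 in Slfn8, which has a pair of starts there. The start used for Slfn5 lies inside the gene interval of the expression tables, so its stretch falls within the gene as they give it. Slfn8 and Slfn9 also shared a 20-base run between their windows.

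The windows of Slfn1 and Slfn4, the genes that moved farthest, had a 15-base run in common, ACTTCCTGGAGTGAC. Its first 9 bases, ACTTCCTGG, were present in the short and intermediate members, 4 of 7, and in 0.999% of all genes. These letters were chosen after these promoters had been seen, and they hold the TTCC core of binding sites of ETS-family factors. The 250 bases before the start are shown for Slfn1 (chr11:83116570-83116819, plus) and Slfn4 (chr11:83174936-83175185, plus), followed by 29 bases around the run in Slfn2 (chr11:83065047-83065075, plus) and Slfn3 (chr11:83191278-83191306, plus), with the 9 bases in capitals.
Slfn1: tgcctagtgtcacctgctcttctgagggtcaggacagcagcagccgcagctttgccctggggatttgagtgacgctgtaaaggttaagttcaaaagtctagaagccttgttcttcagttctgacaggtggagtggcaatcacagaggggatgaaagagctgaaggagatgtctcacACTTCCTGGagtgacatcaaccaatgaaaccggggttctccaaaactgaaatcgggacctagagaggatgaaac
Slfn4: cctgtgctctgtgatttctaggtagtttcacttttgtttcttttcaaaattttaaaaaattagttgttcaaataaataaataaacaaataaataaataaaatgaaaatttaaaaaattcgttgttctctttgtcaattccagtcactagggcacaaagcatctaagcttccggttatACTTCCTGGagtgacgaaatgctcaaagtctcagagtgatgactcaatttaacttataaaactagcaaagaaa
Slfn2: cagggctttcACTTCCTGGagggtgacag
Slfn3: ggatgacagaACTTCCTGGgggagggact
The run began 74 bases before the start in Slfn1, 73 in Slfn4, 55 in Slfn2 and 42 in Slfn3. Its presence did not follow the size of the change in MSC-EV against PBS. Slfn2 and Slfn3, with the run, had log2 fold changes of -0.45 and -0.48. Slfn5, Slfn8 and Slfn9, without it, were at -0.70, -0.54 and -0.40. A match describes letters in a window. It is not shown to be a binding site, and these data do not measure binding.

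The tables gave 20342 to 21172 genes above 0 TPM per sample. They hold no read counts, and relative depth, read as the ratio of coverage to FPKM, was 5.28 to 6.32 in PBS, 6.25 to 6.47 in HEK-EV and 6.58 to 6.84 in MSC-EV samples, so depth moved with the groups. Some samples held transcripts of pancreatic acinar cells: the summed level of 12 such genes was 11.5 to 13.6 TPM in PBS, 37.1, 1090 and 14.1 in HEK-EV replicates 1 to 3, and 145, 12.7 and 3080 in MSC-EV replicates 1 to 3. The sort markers were present, Itgam (the CD11b chain) at 330 ± 44.3, 372 ± 54.1 and 229 ± 29.6 TPM and Ptprc (CD45) at 585 ± 65.9, 614 ± 49.5 and 424 ± 4.85 TPM (mean ± SD, n = 3) in PBS, HEK-EV and MSC-EV samples. Both were lowest in MSC-EV.

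Schlafen transcripts were abundant in PBS mice. Together the 7 genes gave 1413, 2349 and 2325 TPM in PBS replicates 1 to 3, 2087, 1582 and 2253 TPM in HEK-EV, and 1120, 958.8 and 1186 TPM in MSC-EV. The group values were 2029 ± 534, 1974 ± 349 and 1088 ± 117 TPM (SD, n = 3), and no MSC-EV sample reached the lowest sample of either other group. The MSC-EV mean was 53.6% and the HEK-EV mean 97.3% of the PBS mean. No test was made of this sum, since its members were chosen with results known. Without PBS replicate 1, the lowest PBS sample, the MSC-EV mean was 46.6% of the PBS mean. On leaving out 1 sample, the HEK-EV mean ran from 84.5% (without PBS replicate 1) to 107% (without HEK-EV replicate 2) of the PBS mean.

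TPM is scaled by transcript length, so levels of different genes can be set side by side. In PBS samples Slfn4 (619 ± 268 TPM) and Slfn2 (581 ± 90.0) were highest and overlapped, followed by Slfn1 (370 ± 107), Slfn5 (288 ± 66.3) and Slfn8 (127 ± 23.5), with Slfn3 (22.4 ± 5.07) and Slfn9 (21.9 ± 5.02) lowest (mean ± SD, n = 3). Slfn1 was above Slfn5 in 3 of 3 PBS samples, although the ranges of both genes overlapped, and Slfn3 and Slfn9 were not separated. The order was the same in HEK-EV samples, with the same overlaps. In MSC-EV samples Slfn2 stood alone at the top with 422 ± 33.7 TPM. Slfn4, Slfn1 and Slfn5 were then within their spread at 191 ± 26.0, 182 ± 15.8 and 175 ± 24.4 TPM, ahead of Slfn8 at 86.7 ± 14.9 TPM. Slfn3 and Slfn9 again overlapped at the bottom. Slfn4 thus changed place, from 29.4 ± 6.55% of the family's transcripts in PBS and 30.8 ± 7.25% in HEK-EV to 17.5 ± 1.3% in MSC-EV, while Slfn2 made up 29.3 ± 4.02%, 30.0 ± 3.96% and 38.9 ± 1.12%.

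**Figure D1:**
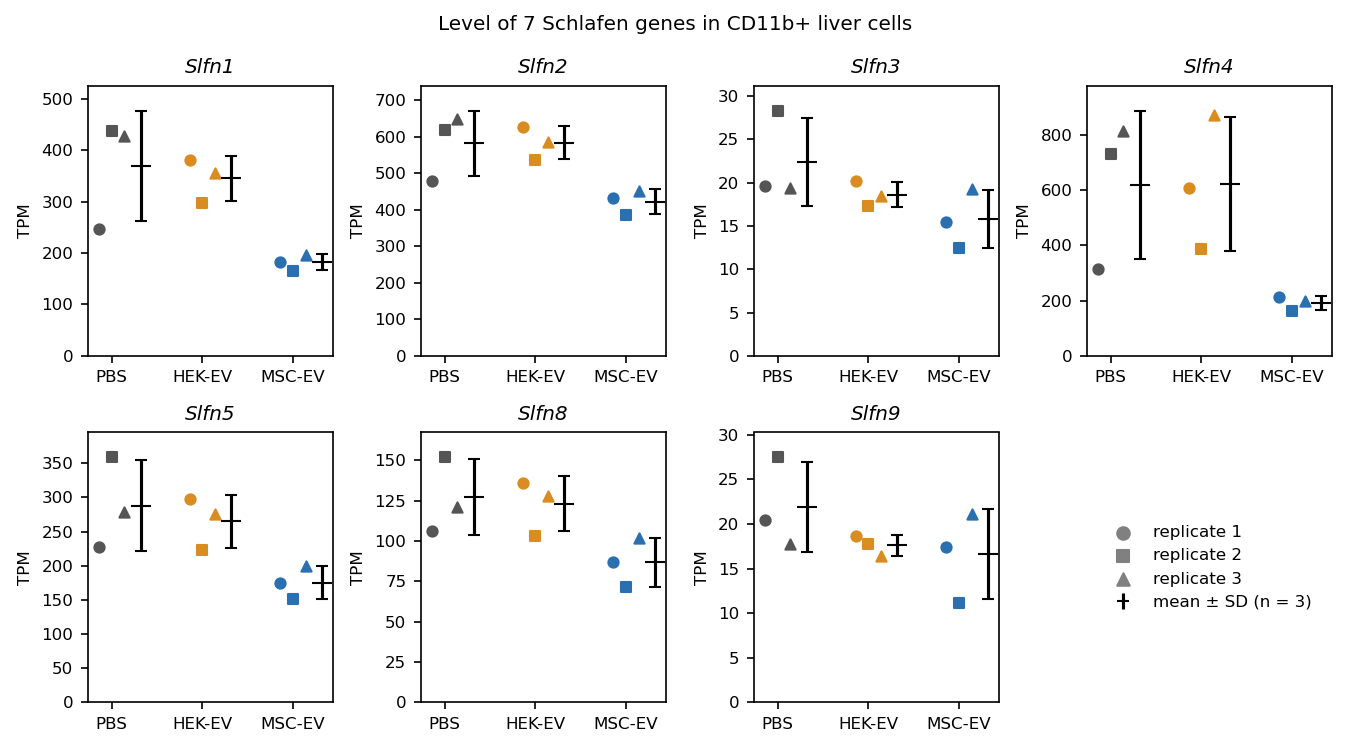
TPM (vertical axes, from 0) of the 7 Schlafen genes in each of 9 samples of PBS, HEK-EV and MSC-EV mice; marker shapes give the replicate number, and the black mark with bars is the mean ± SD of 3 samples. For Slfn1, Slfn2, Slfn4, Slfn5 and Slfn8 the MSC-EV samples all lie below the PBS and HEK-EV samples, while for Slfn9 they overlap both.

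The first comparison asked how CD11b+ cells differed after SIRP-EVs from MSCs and after PBS. All 7 genes were lower on average in MSC-EV than in PBS samples, and of the 6 members other than Slfn4 the values of 5 did not overlap, Slfn9 being the exception. Of all 13820 genes tested, 26% did not overlap between these groups, 14.9% with MSC-EV lower, and 47.7% had a fold change below 0. In limma on log2(TPM + 1), with p-values adjusted over all 13820 genes, 2 of the 6 members other than Slfn4 (Slfn1 and Slfn5) passed 0.05, against a background of 5.11% of genes (3.25% lower and 1.86% higher). Higher genes were 36.4% of all calls with TPM and 63.1% with FPKM, so the balance of directions over all genes depends on the scaling, while the 7 members were below 0 under both. Since the family was chosen with this comparison known, nothing is read from the count. The median log2 fold change of the 7 genes was -0.54, against 0.01 over all genes tested.

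Slfn4, the member with the largest difference, was at 314, 729 and 814 TPM in PBS replicates 1 to 3 and at 213, 162 and 197 TPM in MSC-EV replicates 1 to 3. All MSC-EV samples lay below the lowest PBS sample, replicate 1, which stood well under the others of its group. The log2 fold change was -1.59 (SE 0.370). Only 3 of the 13820 genes had a more negative one, and nothing is read from this rank, since the family was selected on this difference. Over 20 alternative fits the value ranged from -2.39 to -1.33.

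Slfn1, a short form that restrains T cell growth, was at 247, 437 and 427 TPM in PBS and at 182, 166 and 197 TPM in MSC-EV samples. The groups did not overlap, and PBS replicate 1 was again the lowest of its group. Slfn1 fell by 0.98 on the log2 scale (SE 0.199, limma adjusted p = 0.0313). Slfn2, the other short form, was at 479, 617 and 648 TPM in PBS and 432, 385 and 450 TPM in MSC-EV samples. These values did not overlap either, but the difference was smaller and missed the threshold (log2 fold change -0.45, SE 0.116, limma adjusted p = 0.0555). The ratio of Slfn1 to Slfn2 was 0.627 ± 0.0999 in PBS and 0.430 ± 0.00917 in MSC-EV samples, and that of Slfn4 to Slfn2 1.03 ± 0.327 and 0.451 ± 0.0372, with no overlap for either (n = 3, no test made).

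Among the long forms, Slfn5, an interferon-induced nuclear protein, was at 227, 359 and 278 TPM in PBS and 174, 151 and 200 TPM in MSC-EV samples. The lowest PBS sample was just above the highest MSC-EV sample. Slfn5 fell by 0.70 on the log2 scale (SE 0.172, limma adjusted p = 0.0499), at the threshold. Slfn8 was at 106, 152 and 121 TPM in PBS and 86.8, 71.7 and 102 TPM in MSC-EV samples, with a gap of a few TPM between the groups (log2 fold change -0.54, SE 0.162, limma adjusted p = 0.0852). Slfn9, its near copy, was at 20.4, 27.5 and 17.8 TPM and at 17.4, 11.1 and 21.1 TPM. These overlapped, and the 95% interval of its log2 fold change of -0.40 ran from -0.89 to 0.08 (limma adjusted p = 0.3). The fold change of Slfn9 was -0.16 without MSC-EV replicate 2, -0.24 without PBS replicate 2 and -0.59 without MSC-EV replicate 3. It was -0.70 with acinar transcripts as a term and -0.62 with array quality weights (limma adjusted p = 0.0253). Slfn3, the near copy of Slfn4 beside it on the chromosome, was at 19.6, 28.3 and 19.4 TPM in PBS and 15.5, 12.5 and 19.2 TPM in MSC-EV samples. Its groups were separated by a fraction of a TPM (log2 fold change -0.48, SE 0.171, limma adjusted p = 0.129). Its fold change was -0.31 without PBS replicate 2 and -0.74 with array quality weights (limma adjusted p = 0.00495).

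The calls rest on few samples. In limma the call of Slfn1 held in 12 of 20 alternatives and was lost without PBS replicate 2 (adjusted p = 0.132) or 3 (0.107), without MSC-EV replicate 1 (0.121), 2 (0.0991) or 3 (0.0504), with only the 6 samples compared (0.0622), with acinar transcripts as a term (0.126) and with no filter on low values (0.198), and that of Slfn5 held in 3 of 20, with adjusted p = 0.0559 to 0.176 on leaving out any one sample but PBS replicate 1 (0.0118) and 0.147 with acinar transcripts as a term. Without PBS replicate 1, Slfn2 (limma adjusted p = 0.00471) and Slfn8 (0.0381) were called as well, and with depth as a covariate Slfn2 was called (-0.70, limma adjusted p = 0.0322), Slfn5 was not (0.0787) and Slfn1 was at -1.496. Of the 20 alternatives, 13 could change a fold change, and all 7 genes stayed below 0 in these. With acinar transcripts as a term the fold change was -1.02 for Slfn1 and -0.77 for Slfn5. No PBS sample was above the 0.3 TPM split of that term, which is thus partly confounded with the comparisons against PBS.

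The second comparison asked the same of SIRP-EVs from HEK cells. None of the 7 genes passed the threshold in limma, none had an unadjusted p under 0.05, and none was separated from PBS. Of all genes, 0% passed, 495 (3.58%) had an unadjusted p under 0.05, and 7.81% did not overlap. Slfn4 was at 607, 387 and 872 TPM in HEK-EV samples, a spread near that in PBS, and the log2 fold change was 0.05 with a 95% interval of -0.78 to 0.88. Slfn1 (381, 297 and 356 TPM) and Slfn2 (626, 537 and 586 TPM) lay inside the PBS range, with intervals of -0.51 to 0.38 and -0.25 to 0.27. Slfn5 (297, 223 and 276 TPM) and Slfn8 (136, 103 and 128 TPM) had log2 fold changes of -0.10 and -0.04, with intervals of -0.49 to 0.28 and -0.40 to 0.33. Slfn3 (20.2, 17.3 and 18.4 TPM) and Slfn9 (18.7, 17.8 and 16.4 TPM) were at -0.24 and -0.28, with intervals of -0.62 to 0.15 and -0.76 to 0.20, and at -0.07 and -0.11 without PBS replicate 2. The limma adjusted p was 0.999 for each of the 7. A missed threshold does not show that PBS and HEK-EV samples were alike, and the sign of the values for Slfn1, Slfn2, Slfn4, Slfn5 and Slfn8 turned in some alternatives.

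The last comparison set the vesicle sources against each other. It shares the MSC-EV samples with the first, so its values are set beside those and add no independent sample. In limma, 2 of the 6 members other than Slfn4 were lower in MSC-EV than in HEK-EV samples with adjusted p under 0.05, against 5.91% of all genes (4.40% lower), and 4 of these 6 did not overlap, against 30.1% (17.5% with MSC-EV lower). They were Slfn1 (log2 fold change -0.92, SE 0.199, limma adjusted p = 0.0330) and Slfn2 (-0.47, SE 0.116, limma adjusted p = 0.0485). Slfn4 had a log2 fold change of -1.63 (SE 0.370), given with no test. Its lowest HEK-EV sample was replicate 2 at 387 TPM, above the highest MSC-EV sample at 213 TPM. Slfn5 and Slfn8 did not overlap but were not called, with -0.60 (limma adjusted p = 0.0735) and -0.50 (limma adjusted p = 0.101). Slfn3 and Slfn9 overlapped, with -0.24 (limma adjusted p = 0.444) and -0.13 (limma adjusted p = 0.777), and the value of Slfn3 was -0.10 without MSC-EV replicate 2 and -0.39 without replicate 3. All 7 values were below 0, as were 53.8% of all genes. That of Slfn9 turned to 0.12 without MSC-EV replicate 2 and was -0.31 without replicate 3. None of the 6 members other than Slfn4 was called when any one HEK-EV or MSC-EV sample was left out. The limma adjusted p was then 0.0524 to 0.113 for Slfn1 and 0.0642 to 0.152 for Slfn2. Neither Slfn1 nor Slfn2 was called with acinar transcripts as a term (limma adjusted p = 0.0501 and 0.0665), with FPKM (0.0581 and 0.112), with median-of-ratios scaling (0.0573 and 0.0965), with no filter (0.213 and 0.252) or with a replicate block (0.0559 and 0.0778), and Slfn2 also not with a pseudocount of 0.1 (0.0501), with quantile normalization (0.0642) or without PBS replicate 2 (0.0617). The call held in 9 of 20 alternatives for Slfn1 and 6 of 20 for Slfn2. Higher genes were 25.6% of all calls with TPM and 59.5% with FPKM.

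**Figure D2:**
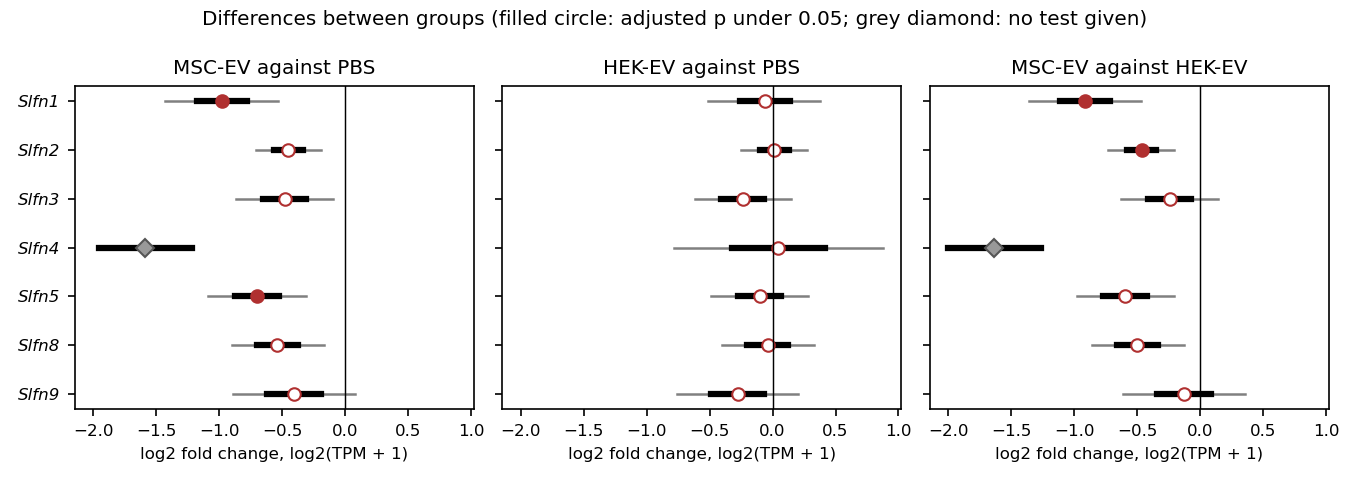
Log2 fold change of log2(TPM + 1) (horizontal axes) of the 7 Schlafen genes in the 3 comparisons; thick bars are ± SE, thin lines 95% intervals, filled circles limma adjusted p under 0.05, and grey diamonds Slfn4 where it is given without a test or interval. In HEK-EV against PBS all intervals include 0, while in both comparisons of MSC-EV the intervals of Slfn1, Slfn2, Slfn5 and Slfn8 lie below 0.

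The position of a sample was much the same for several members. MSC-EV replicate 2 was the lowest of the 9 samples for all 7 genes. PBS replicate 1 and HEK-EV replicate 2 were the 2 lowest samples outside the MSC-EV group for Slfn1, Slfn2, Slfn4, Slfn5 and Slfn8. As a description over 9 samples, after each group's mean log2 level was taken off, the correlation between members ranged from 0.13 to 0.98 with a median of 0.77. The highest were Slfn5 with Slfn8 (0.98), Slfn1 with Slfn2 (0.96) and Slfn3 with Slfn9 (0.93). The lowest was Slfn4 with Slfn9 (0.13), and Slfn3 and Slfn4, neighbours with closely related coding sequences, had 0.37. Near copies can share reads, all members share library and depth, and no p is given.

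**Figure D3:**
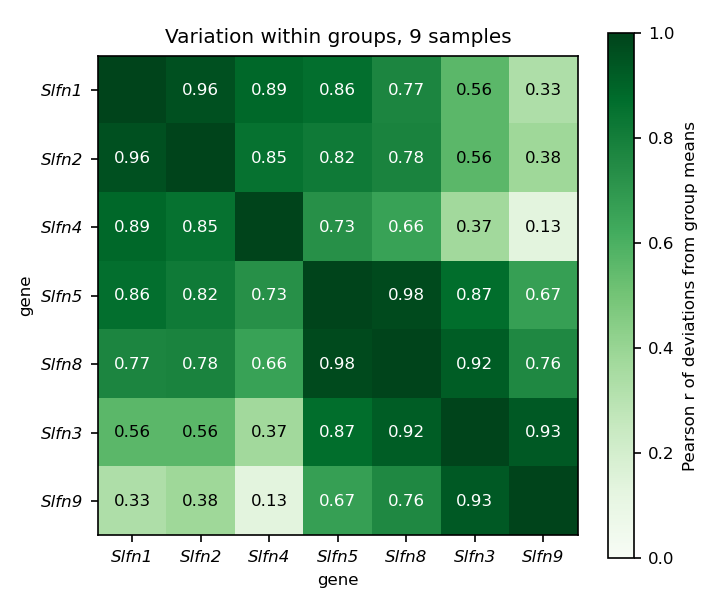
Pearson correlation (colour and number, scale 0 to 1) between Schlafen genes of their deviations from group means on log2(TPM + 1), over 9 samples. Values run from 0.13 between Slfn4 and Slfn9 to 0.98 between Slfn5 and Slfn8.

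Genes outside the family with the most similar pattern were taken by Pearson correlation on log2(TPM + 1) over the 9 samples, among 9614 genes with a mean of at least 5 TPM. Group differences are part of these values, and no p is given. Slfn4 was closest to Tle3 (0.990), a Groucho-type corepressor, Slc28a2 (0.986), a nucleoside transporter, and Rgs3 (0.983), a regulator of G-protein signalling. Slfn1 was closest to Ggct (0.991), Klra2 (0.989) and Ms4a4b (0.983), and Slfn2 to Ggct (0.987), Pstpip2 (0.980) and Klra2 (0.980). Slfn5 was closest to Tor1aip1 (0.991), Ddx58 (0.990), the RNA sensor RIG-I, and Trim34b (0.985), and Slfn8 to Trim34b (0.991), Atxn7l1 (0.987) and Ifi206 (0.981). Slfn3 was closest to Rilpl1 (0.975), Sass6 (0.965) and Zc3hav1 (0.957), the zinc-finger antiviral protein, and Slfn9 to Sass6 (0.957), Pml (0.949) and Rbbp8 (0.949). Spearman's rho was 0.80 to 1 over all these pairs.

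Interferon induces Schlafen genes by way of the receptor chains, the JAK kinases and the STAT and IRF factors. Interferon transcripts themselves were scarce: all 21 listed interferon genes stayed under 1 TPM in every sample, and 16 were listed at 0 throughout. Of 36 listed interferon-stimulated genes, 35 could be tested. In MSC-EV against PBS, 34 of 35 were below 0 and 6 were called lower, beside 47.7% and 3.25% of all genes, with a median log2 fold change of -0.60. In HEK-EV against PBS all 35 were below 0, beside 39% of all genes, and none was called, with a median of -0.21. In MSC-EV against HEK-EV 34 were below 0 and none was called, beside 53.8% below 0 and 5.91% called over all genes, with a median of -0.44. The other comparisons share samples with the first, and the list was chosen with earlier results of these data known.

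Of the interferon-stimulated genes called in MSC-EV against PBS, the 4 of smallest p were Oas1a, an oligoadenylate synthetase, from 284 ± 47.2 to 191 ± 11 TPM (log2 fold change -0.55, SE 0.113, limma adjusted p = 0.0313), Ifi35 from 125 ± 20.9 to 84.8 ± 2.11 TPM (-0.54), Oas3 from 201 ± 63.4 to 98 ± 11.5 TPM (-0.99) and the dynamin-like GTPase Mx2 from 33.0 ± 7.23 to 19.3 ± 2.97 TPM (-0.73). The shares over all genes given above (5.11% called, 47.7% below 0) are the background of the counts that follow. Among 9 receptors and kinases none was called and the median was -0.08, with Ifngr1 at -0.41 (limma adjusted p = 0.0546). Among 9 transcription factors 8 were below 0 and 1 was called, Irf5 (-0.37, limma adjusted p = 0.0251), while Irf7, which amplifies the interferon response, was at -0.87 (SE 0.244, limma adjusted p = 0.0730). Of 8 feedback inhibitors 7 were below 0 and 2 were called, the phosphatase gene Ptpn6 (-0.39) and the DNA exonuclease gene Trex1 (-0.59). Of 10 genes of antiviral RNA decay and transfer RNA cleavage, the process closest to the Schlafen core, 9 were tested, 6 were below 0 and 1 was called, the exonuclease gene Isg20 (-0.93, limma adjusted p = 0.0479). No gene of these lists was called with acinar transcripts as a term, with no filter or with only the 6 samples compared. None was called without any one of PBS replicates 2 and 3 and MSC-EV replicates 1 and 2 either. Without PBS replicate 1, 26 interferon-stimulated genes were called. The calls of Oas1a, Ifi35, Oas3 and Mx2 held in 8, 9, 10 and 10 of 20 alternatives, and those of Irf5, Ptpn6, Trex1 and Isg20 in 11, 6, 5 and 5.

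Cell type markers moved with the Schlafen genes, and in bulk samples fewer cells of a type and less RNA per cell cannot be told apart. The sort markers Itgam and Ptprc had log2 fold changes of -0.53 to -0.46 in MSC-EV against PBS, near those of Slfn2, Slfn3 and Slfn8. Neither overlapped, and 1 was called lower, beside 3.25% of all genes. That call was lost with the acinar term, no filter, FPKM or the 6 samples alone, and without PBS replicate 2 or 3 or any one MSC-EV sample. Against HEK-EV they were at -0.70 to -0.53. The summed level of 10 classical monocyte markers was 6693 TPM in PBS replicate 1, 12735 and 13268 in replicates 2 and 3, 8468 to 10785 TPM in HEK-EV and 4156 to 5101 TPM in MSC-EV samples. All 10 were below 0 in MSC-EV against PBS and 5 were called lower, beside 3.25% of all genes, but none with acinar transcripts as a term, with no filter, or without any one of PBS replicates 2 and 3 and MSC-EV replicates 1 and 2. Their part in the Schlafen result was not tested. Markers of lipid-associated macrophages went the other way, from 8053 to 8974 TPM in PBS and 9492 to 10781 TPM in HEK-EV to 17257 to 19583 TPM in MSC-EV samples. The 10 neutrophil markers summed to 3037 to 5617, 5035 to 6883 and 2971 to 3777 TPM. In MSC-EV against PBS, 7 were below 0, 3 above, 1 called higher and none lower. No neutrophil marker was called higher with the acinar term, no filter, a minimum of 5 TPM, the 6 samples alone, depth as a covariate or the replicate block. The same held without PBS replicate 2 or 3, without HEK-EV replicate 2, and without any one MSC-EV sample. The 6 Kupffer cell markers summed to 2604 to 3130, 1775 to 3664 and 1460 to 2539 TPM. All 6 were below 0 and none was called in MSC-EV against PBS. The 6 hepatocyte markers summed to 385 to 455, 322 to 482 and 641 to 712 TPM. All 6 were above 0 and 2 were called higher in MSC-EV against PBS. No hepatocyte marker was called with the acinar term, no filter or the replicate block, without PBS replicate 2 or 3, or without any one MSC-EV sample. The 6 endothelial markers summed to 267 to 331, 181 to 386 and 113 to 225 TPM, with all 6 below 0 and none called in MSC-EV against PBS. The part of these lists in the Schlafen result was not tested either. T and NK cell markers were low, at 8.21 to 11, 8.45 to 12.8 and 11.5 to 16.8 TPM, with 6 of 10 under 1 TPM in every sample. Every MSC-EV sum was above every PBS sum, and the 3 markers tested were all above 0, 1 of them called higher (none on leaving out any 1 sample).

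Within groups, several Schlafen genes followed both the interferon-stimulated genes and the monocyte markers. As a description over 9 samples, deviations from the group means gave Pearson r = 0.92 (Spearman's rho 0.77) for Slfn1 and 0.87 (rho 0.82) for Slfn4 with the summed interferon-stimulated genes, and 0.92 (rho 0.83) and 0.86 (rho 0.83) with the summed monocyte markers. The 2 samples farthest from the median of the list were PBS replicate 1 and MSC-EV replicate 2 for the interferon-stimulated genes, and PBS replicates 1 and 3 for the monocyte and neutrophil markers, so trimmed values of different lists rest on different samples. Without them the values were 0.78 and 0.72 for the interferon-stimulated genes, and 0.71 and 0.66 for the monocyte markers. Slfn2 had 0.88 (rho 0.72) and 0.82 (rho 0.67), and 0.64 and 0.44 without the 2 samples of each list. Slfn5 had 0.86 (rho 0.67) and 0.69 (rho 0.60), and 0.74 and 0.70 without them. Slfn8 had 0.79 (rho 0.63) and 0.57 (rho 0.47), Slfn3 0.63 (rho 0.53) and 0.35 (rho 0.17), and Slfn9 0.46 (rho 0.37) and 0.07 (rho -0.07). Without the 2 samples of each list, Slfn8 had 0.67 and 0.63, Slfn3 0.46 and 0.55, and Slfn9 0.25 and 0.25. For neutrophil markers Slfn4 stood at 0.84 (rho 0.85), and 0.68 without its 2 samples, while Slfn1 went from 0.65 (rho 0.52) to 0.05 without the same 2. The lists share library and depth with the genes, and these values do not separate one list from another.

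**Figure D4:**
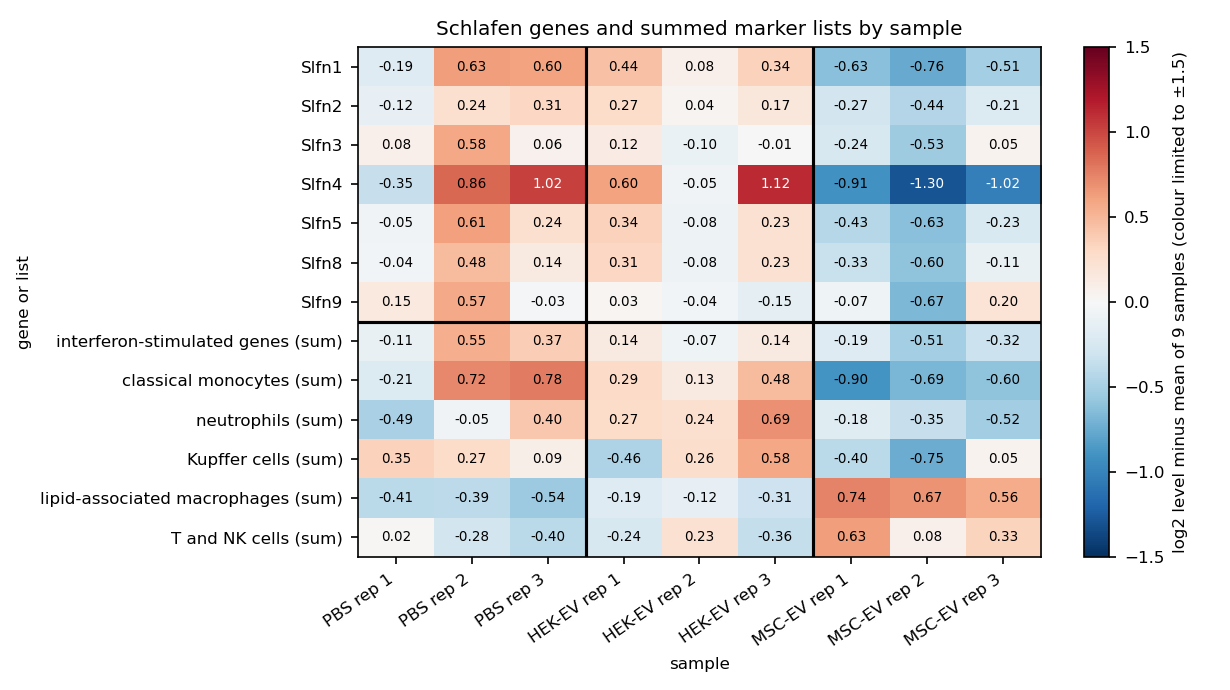
Log2 level minus the mean of 9 samples (colour, limited to ±1.5, and number) for the 7 Schlafen genes and the summed level of 6 gene lists (rows) in each sample (columns, 3 per group). Slfn4 runs from -1.30 in MSC-EV replicate 2 to 1.12 in HEK-EV replicate 3, and the monocyte and interferon rows are low in MSC-EV samples, where the lipid-associated macrophage row is high.

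Other genes of the Slfn name and of the locus gave a local reference. Slfn10-ps, a transcribed pseudogene between Slfn8 and Slfn2 that shares stretches with Slfn8 and Slfn9, was at 8.53 ± 2, 8.32 ± 1.58 and 8.45 ± 0.715 TPM (n = 3) in PBS, HEK-EV and MSC-EV samples (MSC-EV against PBS log2 fold change 0.01, SE 0.167, limma adjusted p = 0.985). Slfn14, at the end of the locus, and the more distant Slfnl1 were listed at 0 in every sample. Slfn5os, antisense to Slfn5, stayed at or below 0.0265 TPM. Gm20234, antisense to Slfn2, and Gm51911, antisense to Slfn1, were at 0.426 to 2.49 and 0.935 to 2.64 TPM. The kit keeps strand, but whether it was used in counting is not given, so an unknown share of their reads may be those of Slfn2 and Slfn1. Within the locus and 100 kb to each side, 14 genes without a Slfn name were tested in MSC-EV against PBS. Of these, 9 were below 0 and none was called with values from -0.94 to 0.28. The lowest, Gm38922, lies just beyond the 3′ end of Slfn1 on the same strand and was at 10.7 ± 4.39 TPM in PBS and 4.76 ± 0.536 TPM in MSC-EV samples (limma adjusted p = 0.0770). AI662270, the nearest tested gene beyond Slfn3, was at 226 ± 17.3 and 215 ± 9.62 TPM (log2 fold change -0.07, SE 0.0676, limma adjusted p = 0.596).

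**Figure D5:**
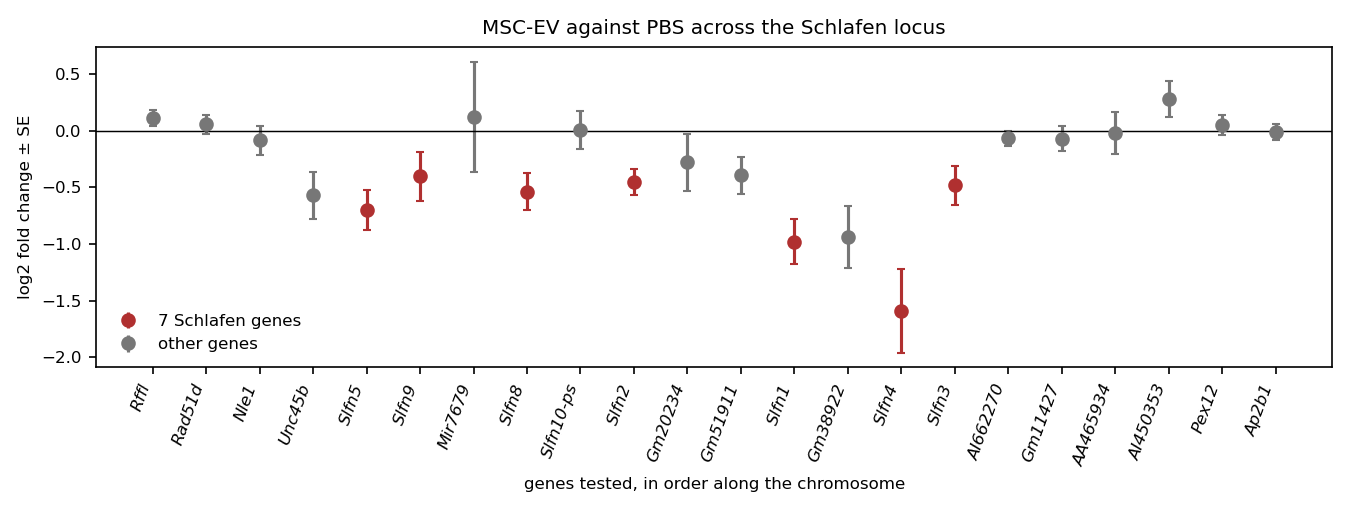
Log2 fold change ± SE (vertical axis) of MSC-EV against PBS for the genes tested at the Schlafen locus and its flanks, in order along the chromosome; red points are the 7 Schlafen genes, grey points other genes. The Schlafen genes lie between -1.59 and -0.40, while Rffl and Ap2b1 at the ends of the region lie near 0.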

How the data were processed

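RNA of CD11b+ liver cells was isolated with Trizol, and per the labels' protocols the library kit was TruSeq Stranded mRNA. HISAT2 2.1.0, StringTie and the genome build mm10 are named in the submitters' processing notes; the gene annotation and the use of strand in counting are not given in the sources used here. Each sample has 1 table of coverage, FPKM and TPM per gene, per the file headers. The deposited coverage values are a signal, the average number of reads over the bases of a gene. The deposited FPKM are scaled by gene length and library size. The analysis used the authors' TPM, which add up to 1000000 in a sample, after summing rows of 1 gene ID.

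Gene IDs were matched to the RefSeq gene table of GRCm38.p6 (45679 of 45777, 99.79%, had a symbol), and 96.4% of matched genes had the same start and end. Depth is known only in relative terms, since no counts were used here, and no interval that needs counts was computed. Group differences were tested in limma 3.58.1 (R 4.3.3; lmFit, contrasts.fit, eBayes with trend) on log2(TPM + 1), a scale that understates the change of low genes, for the 13820 genes that reached 1 TPM in 3 or more of 9 samples. All 9 samples entered 1 fit without covariates, and p-values are two-sided with Benjamini-Hochberg adjustment over all genes tested (threshold 0.05). Python 3.11.15 (pandas 2.3.3, numpy 2.4.6, scipy 1.17.1, matplotlib 3.10.9) gave levels, correlations and figures. Sequences are from RefSeq (GRCm38.p6).

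The Schlafen genes, the interferon and marker lists and the alternatives were chosen with earlier results of these data known. Text names all members and other Slfn symbols, up to 4 genes of smallest p per interferon list, and the 3 genes outside the family of most similar pattern per member; locus genes named singly were chosen after their values were seen. The fit was tested on simulated data. The fits tried beside it used FPKM, median-of-ratios scaling or quantile normalization, a pseudocount of 0.1, a minimum of 5 TPM or no filter, array quality weights, the 6 samples of a comparison alone, a replicate block, a term for samples with a median acinar level above 0.3 TPM, leaving out each sample, and, added after the data were seen, depth as a covariate. The labels give no day or batch.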

Additional observations from a re-analysis of the deposited data

How the results depend on the processing

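In MSC-EV against PBS all 7 Schlafen genes kept a fold change below 0 in the 13 of 20 alternatives that could change it. The other 7 alternatives leave it equal by construction. Of the 6 members other than Slfn4, 2 were past the threshold there. Counted over all 7 members the number was 3, and it was not kept. Since Slfn4 was selected on this difference, counts over all 7 are no test of Slfn4 and no support for it. The number over all 7 was 0 with no filter on low values, with only the 6 samples compared and with acinar transcripts as a term, 1 with FPKM, with median-of-ratios scaling and with the replicate block, 7 with array quality weights, and 0 to 5 on leaving out 1 sample. In MSC-EV against HEK-EV, 2 of the 6 members other than Slfn4 were past the threshold. The count over all 7, which was 3 there, became 0 with no filter, FPKM, median-of-ratios scaling and the acinar term. It was 1 with the replicate block, and 0 to 4 on leaving out 1 sample. Nothing is read for Slfn4 from this count either.

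Over all genes, 706 calls in MSC-EV against PBS became 11 with no filter, 77 with 6 samples, 4163 with weights, 404 with the block, 21 with the acinar term, 1340 with depth as a covariate, and 5 (without PBS replicate 2) to 1881 (without PBS replicate 1) on leaving out 1 sample. The 817 calls in MSC-EV against HEK-EV became 5 with no filter, 459 with FPKM, 512 with median-of-ratios scaling, 2081 with weights, 448 with the block, 1446 with depth, and 0 to 1384 on leaving out 1 sample. The 0 calls in HEK-EV against PBS became 6 with no filter and 0 to 2 on leaving out 1 sample. The share of calls that were higher in MSC-EV than in PBS was 36.4%, and 63.1% with FPKM, 47.2% with median-of-ratios and 44.5% with quantile scaling; against HEK-EV it was 25.6%, 59.5%, 46.3% and 45.5%. The summed Schlafen level of MSC-EV samples was 46.6% to 58.2% of PBS on leaving out 1 sample. The cause of these shifts was not tested.

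Fold changes near 0 in HEK-EV against PBS turned sign: leaving out 1 sample gave -0.3321 to 0.0779 for Slfn1 (0.06 and 0.04 without PBS replicate 3 and HEK-EV replicate 2), -0.2622 to 0.0666 for Slfn5, -0.1556 to 0.1015 for Slfn8 and -0.3841 to 0.3495 for Slfn4, with the highest value without PBS replicate 2 for the first 3 genes. Slfn2 turned to -0.0092 with FPKM, -0.0197 with median-of-ratios scaling, -0.11 with weights, -0.0466 with the acinar term, -0.13 with depth, and ran from -0.1196 (without PBS replicate 1; -0.04 without HEK-EV replicate 1) to 0.0978 on leaving out 1 sample. Slfn4 turned to -0.47 with weights, -0.40 with depth, and -0.38 and -0.23 without PBS replicate 1 and HEK-EV replicate 3. In MSC-EV against HEK-EV, Slfn9 ran from -0.3145 to 0.1183 (without MSC-EV replicate 2) on leaving out 1 sample.

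Replicate numbers do not pair the samples: deviations of same-numbered samples correlated at -0.499 to 0.058 over 9 pairs, 0 of them over 0.1. The replicate block leaves the fold changes equal by construction in this balanced design (-0.98 for Slfn1 in MSC-EV against PBS). It moved the limma adjusted p to 0.0498 for Slfn1 and 0.0886 for Slfn5, whose call was lost. Without read counts, limits of detection could not be set.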
